A study of Xenopus laevis with 11 samples.

Results

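Transcription factors of the embryonic epidermis were followed across tissues dissected from embryos of the frog Xenopus laevis. Members were chosen by name: every probe set whose single gene symbol on the array platform was gata2, gata3, klf5 or tp63, or began with foxi or grhl, counting either copy of a gene. This frog carries most genes as a pair of homeologs, written .L and .S for the long and short chromosome of each pair. The rule found 12 probe sets with 9 symbols of 8 genes, out of 9304 probe sets with a single symbol for 6504 genes. Of 22 symbols of 11 genes in the RefSeq table that fit the rule, 9 had a probe set of their own, and foxi2, foxi4.1 and grhl2 had none and were not analysed here. Of the symbols found, gata2.L, foxi4.2.L and klf5.S had 2 probe sets each, called brighter and dimmer below by their mean over all arrays.

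The study asked how the neural crest is induced, and set crest-forming tissue beside reference tissues. Its 11 arrays fell into 5 groups. Animal cap explant grown to stage 14, with 1 array (n = 1), stood for epidermis and is not epidermis dissected from the embryo at that stage. Neural plate was taken at stage 12 (n = 2), and neural border, where crest forms, at stage 14 (n = 3) and at stage 18 (n = 2). The stage 18 anterior neural fold (n = 3), a border region that makes no crest, completed the set. The labels name no strain, transgene or injected agent for any group, and the sources used here do not give the number of embryos per array. Arrays of a group carry the label of biological replicates without a statement on separate clutches, so the p-values reflect the spread among these samples alone, some of which may be technical.

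In the embryo, BMP signalling keeps the outer ectoderm non-neural and turns on a set of transcription factors there, while BMP antagonists from the dorsal midline let the neural plate form. GATA, grainyhead-like, FoxI and p63 proteins then act in the non-neural ectoderm, where they switch on keratins and junction proteins and set aside cell types such as the acid-secreting ionocytes. The neural border and crest arise where neural and non-neural ectoderm meet.

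Levels are log2 intensities, so a difference of 1 is a 2-fold difference in signal, and a probe set is compared only with itself across arrays. Values ran from 2.13 to 13.56, array medians from 4.94 to 5.04, and correlations between arrays of the same group lay between 0.983 and 0.993. A value below 3.72, the 95th percentile of 17 control probe sets that should bind no frog transcript, was treated as background. The highest of these control values was 4.75. Levels between 3.72 and 4.75 thus lie within the range of the controls, and folds that rest on them are uncertain. The tissue labels were checked against marker genes. Of 6 neural crest markers, 5 were at background in the animal cap, snai2 and sox10 among them, and the neural plate markers together (log2 of the summed intensities of 6 genes) stood at 8.30 in the cap against 11.7 to 12.9 on the other arrays. In the stage 12 plate, snai2.L (2.55 and 2.63) and sox10.L (2.63 and 2.85) were at background too, while foxd3.S, another crest marker, read 6.29 and 5.75. In the anterior fold, sox9.S read 6.23, 5.33 and 6.39 and snai2.L 4.58, 2.95 and 4.83. All 6 crest markers were called lower in the fold than in the stage 14 border, against 7.35% of all probe sets. Against the plate, 3 were higher in the fold and 2 lower, where 23.4% and 24.2% of all were. The epidermal keratins and secreted products together stood highest in the cap, at 15.1 against 13.3 to 14.7 elsewhere. Arrays measure tissue RNA in bulk, so fewer cells of a type and less RNA per cell cannot be told apart.

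Most of the epidermal factors were highest in the animal cap and lower in every neural tissue. On 10 of the 12 probe sets the cap array lay above all 10 other arrays, which was so for 21.4% of all 15491 probe sets, and on 6 it did so by more than 1 log2 unit, against 2.15% of all. The exceptions were foxi4.2.S, a FoxI-class forkhead factor gene that was as high in the stage 12 neural plate, and tp63.L, which was highest in the anterior neural fold. In the comparison of the stage 14 border with the cap, both of stage 14, 11 of 12 probe sets were lower in the border at an adjusted p under 0.05 and 0 were higher. Over all probe sets 15.8% were lower and 15.1% higher. The median log2 difference of the 12 was -2.88, against -0.04 over all probe sets. The neural plate, the stage 18 border and the anterior neural fold each also had 11 lower and 0 higher against the cap, where 14.6%, 16.9% and 19.9% of all probe sets were lower and 16.7%, 16.3% and 18.7% higher. Their medians over the 12 were -1.90, -2.40 and -2.73, against -0.03, -0.06 and -0.08 over all. The dimmer foxi4.2.L probe set, at background on all 11 arrays, is among the 10 and among the 11 lower in each comparison with the cap. These 4 comparisons share the single cap array, which has no replicate of its own and was assumed to vary like the other groups, and 3 of them also differ in stage.

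**Figure D1:**
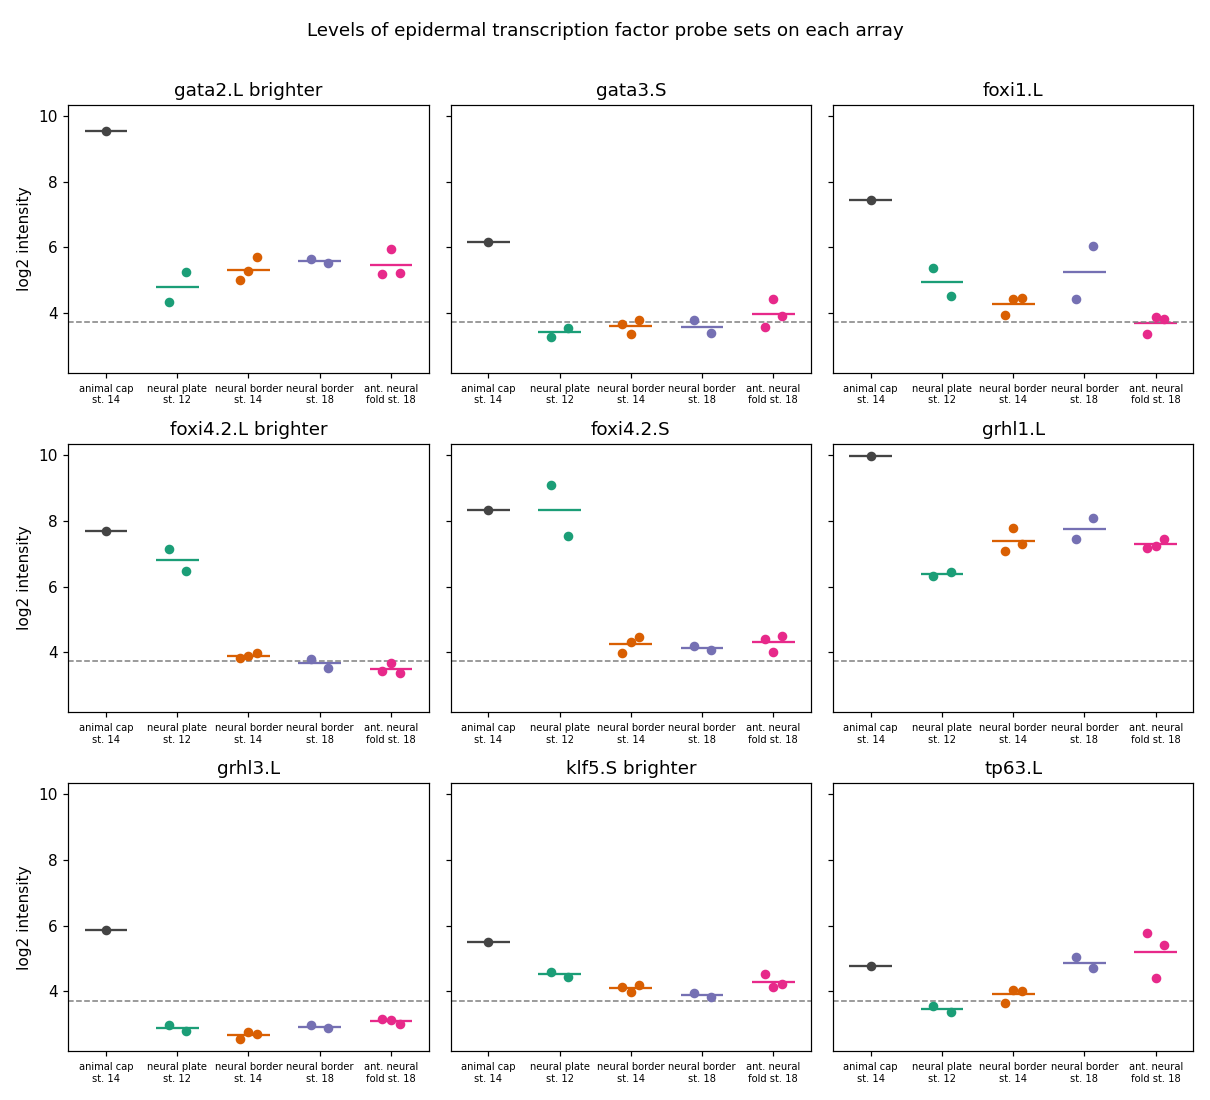
Log2 intensity (vertical axis) of the 8 genes' brighter probe sets, with both foxi4.2 copies, on each of the 11 arrays. Points are arrays, short lines are group means and the dashed line is the background level of 3.72. The animal cap array stands highest in every panel except foxi4.2.S and tp63.L.

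Of the 12 probe sets, gata2.L had the largest difference between the stage 14 border and the cap. The zinc-finger factor GATA2 is an early BMP-responsive gene of ventral ectoderm and is also used in blood precursors. The brighter gata2.L probe set read 9.53 in the cap. It read 4.33 and 5.24 in the neural plate, 5.00, 5.27 and 5.70 in the stage 14 border, 5.64 and 5.51 in the stage 18 border, and 5.19, 5.94 and 5.23 in the anterior neural fold. Every array outside the cap was thus at least 3.59 lower than the cap, and none was at background. The stage 14 border stood at 5.32 ± 0.35 (SD, n = 3), 18.5-fold below the cap (log2 difference -4.21, SE 0.39, adjusted p = 5.11e-05), and only 12 of 15491 probe sets had a more negative difference. The fold against the cap was 26.7 for the neural plate (adjusted p = 3.46e-05), 15.5 for the stage 18 border (adjusted p = 0.000104) and 16.9 for the anterior fold (adjusted p = 4.41e-05). The dimmer gata2.L probe set gave 14.4-fold for the stage 14 border (log2 difference -3.85, SE 0.33, adjusted p = 3.31e-05).

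Among the 4 neural tissues gata2.L did not separate. Their order ran from the stage 18 border at 5.58 through the anterior fold at 5.45 and the stage 14 border at 5.32 to the plate at 4.79, and no neighbours in it passed the threshold (differences of 0.13, 0.13 and 0.53, adjusted p = 0.917, 0.805 and 0.212). The plate mean rests on arrays 0.91 apart, a gap as large as which only 0.994% of probe sets had in that group. Without plate replicate 2, which leaves a single plate array, the plate fell below the stage 14 border by 0.99, the anterior fold by 1.12 and the stage 18 border by 1.24. The dimmer gata2.L probe set did not set the plate apart. It read 4.99 and 5.46 in the plate, from which the stage 14 border differed by -0.02 (adjusted p = 0.969) and the fold by 0.10 (adjusted p = 0.804).

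Gata3, a related zinc-finger gene of non-neural ectoderm, read 6.17 in the cap on its .S probe set. It read 3.28 and 3.56 in the plate, 3.66, 3.38 and 3.78 in the stage 14 border, 3.78 and 3.39 in the stage 18 border, and 3.57, 4.44 and 3.92 in the anterior fold. Of the 10 arrays outside the cap 6 were at background, both plate arrays among them. The plate was therefore at least 5.44-fold below the cap (adjusted p = 0.000192), and the stage 14 border differed from the cap by -2.56 (SE 0.31, adjusted p = 0.00021). The anterior fold had the next highest level, at 3.97 ± 0.44 (SD, n = 3), not past the threshold against the stage 14 border (0.37, adjusted p = 0.305). Without fold replicate 1, its difference from the plate became 0.76 (adjusted p = 0.0224), against 0.55 (adjusted p = 0.0886) with all arrays.

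Since GATA2 also marks blood, blood and ventral mesoderm markers were read beside it. Of 13 measured, 7 were at background in the cap, among them tal1, lmo2, fli1 and runx1, and gata1.L, the erythroid GATA gene, read 3.99 there against 3.57 to 4.02 elsewhere. Against the cap, 2 of the 13 were lower in the stage 14 border and 0 higher, where 15.8% and 15.1% of all probe sets were. These counts are not read as a result about the markers. The cap array lay above all others for 8 of the 13, against 21.4% of all probe sets. Of these, tal1.S, hba4.S and hba3.L were at background in the cap. The 13 together read 9.36 in the cap against 8.15 to 9.21 on the other arrays. Most of that sum came from the globin gene hba-l5.L, which read 8.99 in the cap, its highest level, and 7.36 to 8.86 elsewhere. The part of blood cells in the gata2.L level was not tested.

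The FoxI genes fell into separate profiles. Foxi1, whose product promotes early ectoderm formation and later the ionocyte fate in frog skin, read 7.45 in the cap on its .L probe set. It read 5.36 and 4.52 in the plate, 3.95, 4.42 and 4.46 in the stage 14 border, 4.42 and 6.06 in the stage 18 border, and 3.38, 3.88 and 3.84 in the anterior fold. The cap was above every other array, and the fold arrays lay below all of the others. The stage 14 border was 9.03-fold below the cap (log2 difference -3.17, SE 0.54, adjusted p = 0.00164) and the fold 13.5-fold (log2 difference -3.75, adjusted p = 0.000473). The order of the neural tissues was stage 18 border (5.24), plate (4.94), stage 14 border (4.28) and anterior fold (3.70), and no neighbours in it passed the threshold (adjusted p = 0.653, 0.26 and 0.361). Of pairs farther apart in that order, the fold was 2.36-fold below the plate (log2 difference -1.24, SE 0.42, adjusted p = 0.035). That call was lost without plate replicate 1 (-0.82, adjusted p = 0.274) and without any single fold array (adjusted p = 0.0539 to 0.0985).

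Foxi4.2, another FoxI-class forkhead gene, once named xfd2, was the exception in the neural plate. The foxi4.2.S probe set read 8.33 in the cap and 9.09 and 7.54 in the plate, but 3.99, 4.31 and 4.48 in the stage 14 border, 4.2 and 4.08 in the stage 18 border, and 4.41, 4.0 and 4.50 in the anterior fold. The plate arrays lay on either side of the cap, and the other 8 arrays read no more than 4.50, within the range of the controls. The plate mean of 8.32 ± 1.09 (SD, n = 2) differed from the cap by -0.01, with a 95% interval of -1.11 to 1.09 (adjusted p = 0.99). Without plate replicate 2 the plate stood 0.76 above the cap (adjusted p = 0.0841), and without replicate 1 it stood 0.78 below it. From the stage 12 plate to the stage 14 border the level fell 16.7-fold (log2 difference -4.06, SE 0.37, adjusted p = 2.1e-05), which was the 11th most negative difference of 15491. Against the plate, the stage 18 border was 18.1-fold lower (adjusted p = 2.68e-05) and the anterior fold 16.2-fold lower (adjusted p = 1.46e-05).

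The homeolog foxi4.2.L also had its high levels in cap and plate on its brighter probe set. The cap read 7.71, the plate 7.16 and 6.47, the stage 14 border 3.83, 3.89 and 3.98, the stage 18 border 3.80 and 3.53, and the fold 3.42, 3.67 and 3.36. The plate was lower than the cap by 0.89 (SE 0.26, adjusted p = 0.0247), a call lost in 3 of 16 alternatives, among them without plate replicate 2 (-0.55, adjusted p = 0.085) and when the model held only the arrays compared (adjusted p = 0.134). The fall from plate to stage 14 border was 7.55-fold (log2 difference -2.92, SE 0.19, adjusted p = 3.45e-06), down to just above background, and the fold was at background on all 3 arrays. Centred on their own means, the group means of foxi4.2.L and foxi4.2.S differed by a root mean square of 0.40. A probe set for 1 homeolog can bind transcripts of the other, and in the RefSeq table foxi4.1 lies beside foxi4.2 on both chromosomes, so signal from these copies cannot be told apart. The dimmer foxi4.2.L probe set was below background on all 11 arrays (2.68 to 3.44), so its calls against the cap carry no fold.

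Products of the epidermis differed in how far the plate stood from the cap. Of 18 epidermal keratins and secreted products, 10 were lower in the plate and 8 did not pass the threshold, against 14.6% lower over all probe sets. At background in the cap were 6 of the 18, of which 5 were so on every array, and no fall could be read from these. The counts cover all 18, so a call on any of the 6 is among them. Krt12.2.S, at background throughout, read 3.63 in the cap and 2.47 to 2.65 elsewhere. The keratin gene krt12.4.L read 5.59 and 5.51 in the plate against 12.50 in the cap, a log2 difference of -6.95 (SE 0.34, adjusted p = 1.41e-06). Itln1.L, the gene of a secreted lectin of frog skin, read 4.03 and 4.14 against 11.06 (log2 difference -6.98, SE 0.56, adjusted p = 1.89e-05). These had the largest differences of the list, and other members were high in both tissues, named here after their values were seen. The keratin gene krt70.S read 11.69 and 11.70 in the plate against 13.30 in the cap, and has1.S, a hyaluronan synthase gene, 11.72 and 11.68 against 12.28. Krt18.1.L, another keratin gene, read 8.84 and 9.01 in the plate, above its 8.37 in the cap. The BMP ligand gene bmp7.2.L read 11.41 and 11.09 in the plate and 11.31 in the cap, then 5.64, 5.73 and 6.62 in the stage 14 border, a fall of 5.25 from the plate (SE 0.26, adjusted p = 8.5e-07). The plate and border differ in both tissue and stage, and these cannot be told apart.

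**Figure D2:**
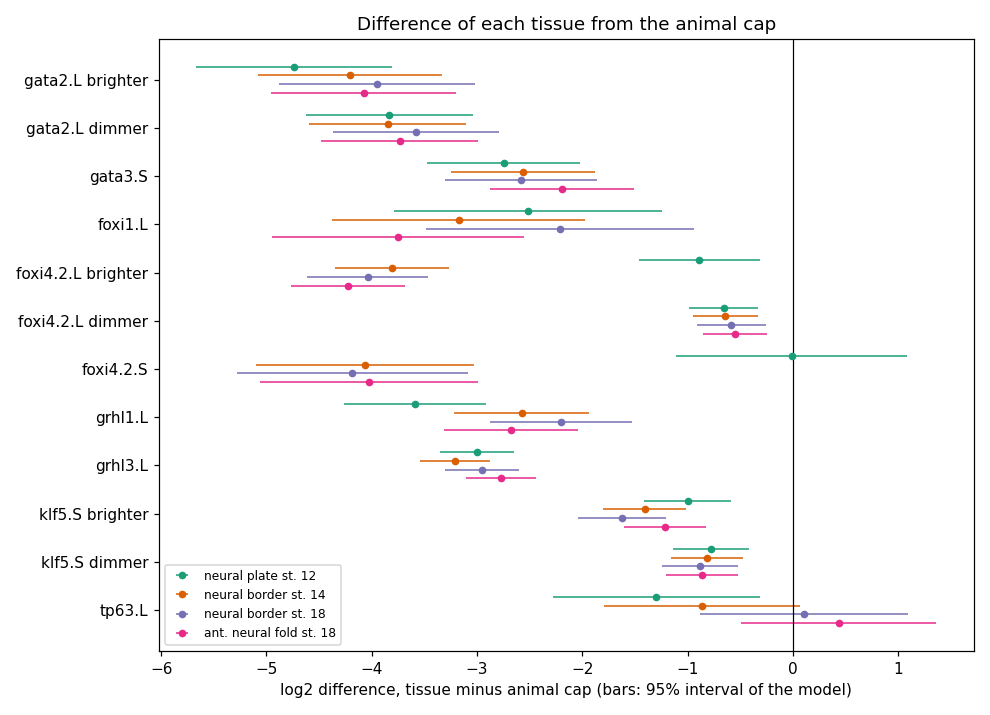
Log2 difference of each tissue from the animal cap (horizontal axis) for all 12 probe sets, with 95% intervals from the linear model; the vertical line marks 0. The intervals of foxi4.2.S for the plate (-1.11 to 1.09) and of tp63.L for the stage 14 border, stage 18 border and fold include 0, and all others lie below it.

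Grainyhead-like factors bind epithelial genes, and grhl1 is known in Xenopus as an activator of epidermal keratin. Grhl1.L was the only member called higher than the plate in both border groups and in the fold. It read 9.97 in the cap, 6.32 and 6.43 in the plate, 7.09, 7.77 and 7.30 in the stage 14 border, 7.44 and 8.08 in the stage 18 border, and 7.18, 7.23 and 7.46 in the fold. The cap stood highest, the plate lowest, and the border and fold arrays between them with no overlap with either. Against the cap the plate was 12.1-fold lower (log2 difference -3.59, SE 0.30, adjusted p = 2.59e-05) and the stage 14 border 5.97-fold lower (log2 difference -2.58, SE 0.28, adjusted p = 0.000136). Against the plate the level was higher by 1.01 in the stage 14 border (SE 0.23, adjusted p = 0.00482), by 1.39 in the stage 18 border (SE 0.25, adjusted p = 0.00118) and by 0.91 in the fold (SE 0.23, adjusted p = 0.00707). The last call was lost without plate replicate 1 (0.86, adjusted p = 0.0541). The border and fold groups, from 7.76 through 7.39 to 7.29, were not told apart (adjusted p = 0.4 and 0.79 for neighbours).

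Grhl3, which in the mouse is needed for the skin barrier and for closing the neural tube, was detected only in the cap. The grhl3.L probe set read 5.88 there and 2.55 to 3.18, below background, on all 10 other arrays. Each neural tissue was therefore at least 4.46-fold below the cap, with the lowest p-values of all members: 1.11e-06 adjusted for the stage 14 border, 2.09e-06 for the plate, 2.7e-06 for the stage 18 border and 1.82e-06 for the fold. These limma p-values use the values as measured, and the spread of this probe set was estimated from arrays at background. Their rank among the members is therefore not read as a stronger difference. The fold was called higher than the stage 14 border (0.43, adjusted p = 0.0218), but both lay at background, so no fold is given.

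Klf5, a zinc-finger gene of proliferating epithelia in mammals, was also highest in the cap, with smaller log2 differences from it than gata2, gata3, foxi1, grhl1 and grhl3 had. The brighter klf5.S probe set read 5.52 in the cap, 4.60 and 4.43 in the plate, 4.13, 3.99 and 4.21 in the stage 14 border, 3.97 and 3.82 in the stage 18 border, and 4.52, 4.15 and 4.24 in the fold. All arrays outside the cap lay between 3.82 and 4.60, above the background level but below the highest control value of 4.75. The plate was 2.00-fold below the cap (log2 difference -1.0, SE 0.19, adjusted p = 0.00272), the stage 14 border 2.66-fold (adjusted p = 0.000265), the stage 18 border 3.08-fold (adjusted p = 0.00017) and the fold 2.32-fold (adjusted p = 0.000492). The dimmer probe set had smaller differences from the cap, of 1.71-fold to 1.84-fold, with adjusted p between 0.00164 and 0.00513. On the brighter probe set the stage 18 border was below the plate by -0.62 (SE 0.15, adjusted p = 0.00721; without plate replicate 1, -0.54, adjusted p = 0.055). The stage 14 border was below the plate by -0.41 (SE 0.14, adjusted p = 0.0379), a call lost in 6 of 16 alternatives, 5 of which left out 1 array: either plate array, replicate 1 or 2 of the stage 14 border, or replicate 3 of the fold (adjusted p = 0.0516 to 0.222). The dimmer probe set passed the threshold in neither comparison, with -0.11 for the stage 18 border (adjusted p = 0.568) and -0.04 for the stage 14 border (adjusted p = 0.839).

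Tp63, the p53-family gene that marks basal cells of stratified epithelia in mammals, had another profile. The tp63.L probe set read 4.77 in the cap, 3.57 and 3.38 in the plate, 3.66, 4.05 and 4.02 in the stage 14 border, 5.05 and 4.71 in the stage 18 border, and 5.79, 4.42 and 5.40 in the anterior fold. Both plate arrays were at background, the stage 14 border just above it on 2 of 3 arrays, and every stage 18 array above all arrays of both earlier groups. The cap lay among the stage 18 arrays. The anterior fold, at 5.20 ± 0.70 (SD, n = 3), was above the stage 14 border by 1.29 (SE 0.29, adjusted p = 0.0167) and above the plate by 1.73 (SE 0.33, adjusted p = 0.00155), at least 2.79-fold. The first call was lost without fold replicate 3 (1.19, adjusted p = 0.0642). The stage 18 border, at 4.88 ± 0.24 (SD, n = 2), was above the plate by 1.40 (SE 0.36, adjusted p = 0.00956), at least 2.23-fold. That call was lost without plate replicate 2 (1.31, adjusted p = 0.0551) and without border replicate 1 (1.23, adjusted p = 0.0609). The stage 18 border exceeded the stage 14 border by 0.97, which missed the threshold (SE 0.33, adjusted p = 0.121).

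Against the cap, tp63.L in the stage 18 border and fold differed by 0.11 (95% interval -0.88 to 1.09, adjusted p = 0.882) and 0.43 (95% interval -0.50 to 1.36, adjusted p = 0.446). The stage 14 border was 0.86 below the cap (95% interval -1.79 to 0.07, adjusted p = 0.151), and the plate at least 2.07-fold below it (log2 difference -1.30, adjusted p = 0.0488). That last call was lost in 9 of 16 alternatives, 8 of which left out 1 array (adjusted p = 0.0506 to 0.137). The fold replicate 2, at 4.42, was the lowest stage 18 value. Without it the fold stood 0.83 above the cap (adjusted p = 0.0287), the stage 14 border was called lower than the cap (adjusted p = 0.0218), and the stage 18 border was called higher than the stage 14 border (adjusted p = 0.0221). On the same array gata2.L (5.94) and gata3.S (4.44) were the highest of the 3 fold arrays. The crest markers sox9.S (5.33), tfap2b.L (3.94), foxd3.S (3.67), snai2.L (2.95) and sox10.L (2.78) were the lowest there, the last 3 at background. Ets1.L (4.80) lay between the other arrays. The part of such differences in the tp63.L level was not tested.

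Between the neural tissues, 0 to 5 of the 12 probe sets were called in a comparison. From the stage 12 plate to the stage 14 border 3 of 12 probe sets were lower, the brighter ones of foxi4.2.L and klf5.S and that of foxi4.2.S, and 1, grhl1.L, was higher, where 21.4% and 19.6% of all probe sets were. From plate to fold 3 were lower (both foxi4.2 copies and foxi1.L) and 2 higher (grhl1.L and tp63.L), against 24.2% and 23.4% of all. From plate to stage 18 border 3 were lower (both foxi4.2 copies and the brighter klf5.S) and 2 higher (grhl1.L and tp63.L), against 22.4% and 22.1% of all. From the stage 14 border to the fold 0 were lower and 2 higher, tp63.L and grhl3.L, the latter at background, against 7.35% and 7.4% of all. Over 12 probe sets these counts are given beside the background and not read as a result about the members. Between the border at stages 18 and 14, limma called 0 of 12 members against 6.56% of all probe sets, and 2 (foxi1.L and tp63.L) had an unadjusted p under 0.05, as did 20.6% of all. Between the stage 18 border and the anterior fold it called 0 of 12 against 5.97%, and 2 (foxi1.L and the brighter klf5.S) had an unadjusted p under 0.05, as did 16.9% of all. The comparisons of the fold with the stage 14 border and plate, and of the stage 18 border with the plate, were chosen after the values were seen.

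The level of foxi1.L in the stage 18 border rested on a single array. Replicate 2 read 6.06 and replicate 1 4.42, a gap of 1.64 that only 0.323% of probe sets reached in that group. With both arrays the stage 18 border stood above the stage 14 border by 0.96 (SE 0.42, adjusted p = 0.234) and above the fold by 1.54 (SE 0.42, adjusted p = 0.0676). Without replicate 1 these differences became 1.78 (adjusted p = 0.0225) and 2.36 (adjusted p = 0.00438). Without replicate 2 they became 0.15 (adjusted p = 0.897) and 0.72 (adjusted p = 0.403). Against the cap the difference was -2.21 (adjusted p = 0.0143) with both arrays, -1.39 without replicate 1 (adjusted p = 0.0374) and -3.03 without replicate 2 (adjusted p = 0.000897). That call was lost in 1 of 16 alternatives, when the model held only the arrays compared (adjusted p = 0.153). Grhl1.L was also higher on replicate 2, by 0.64, while gata2.L, gata3.S and tp63.L were lower there by 0.13, 0.39 and 0.34.

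Some genes of other skin cell types moved with foxi1.L between these arrays, and others did not. Of 13 ionocyte and proton pump genes, 4 were more than 1 log2 unit higher on replicate 2 and 0 as much lower, where 1.70% of all probe sets were that much higher. They were ca12.L, a carbonic anhydrase gene (3.96 and 6.32 on replicates 1 and 2), the proton pump subunit genes atp6v0d2.L (3.82 and 5.64) and atp6v1b1.L (3.47 and 4.79), and the carbonic anhydrase gene ca2.L (3.10 and 4.24). Of 8 multiciliated cell markers 3 were more than 1 unit higher: the radial spoke gene rsph1.L (5.20 and 6.87), the axonemal gene tekt4.S (5.43 and 6.78) and spag6.L, a gene of the ciliary central pair (4.19 and 5.19). These genes were named after their values were seen. Of the other ionocyte and pump genes, atp6v0d1.L (-0.77), atp6v1a.L (-0.20) and slc4a1.L (-0.08) were lower on replicate 2. The remaining genes of both lists were higher there by 0.06 (atp6v1g1.S) to 0.98 (rsph9.L). Summed over each list, the ionocyte genes read 9.31 and 9.65 and the multiciliated markers 7.78 and 8.85, the latter against 7.12 to 7.64 on the other neural arrays and 8.71 in the cap. The keratins and secreted products read 14.4 and 14.7, and a list of 22 epithelial junction and surface genes 12.8 and 13.0. Of these, 1 of 18 and 0 of 22 were more than 1 unit higher on replicate 2. Their median gaps were 0.23 and 0.29, against 0.34 for the ionocyte genes and 0.92 for the multiciliated markers. Over all probe sets the median gap was -0.04, so higher levels on replicate 2 were not particular to the ionocyte and multiciliated lists. The part of these lists in the foxi1.L result was not tested.

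**Figure D3:**
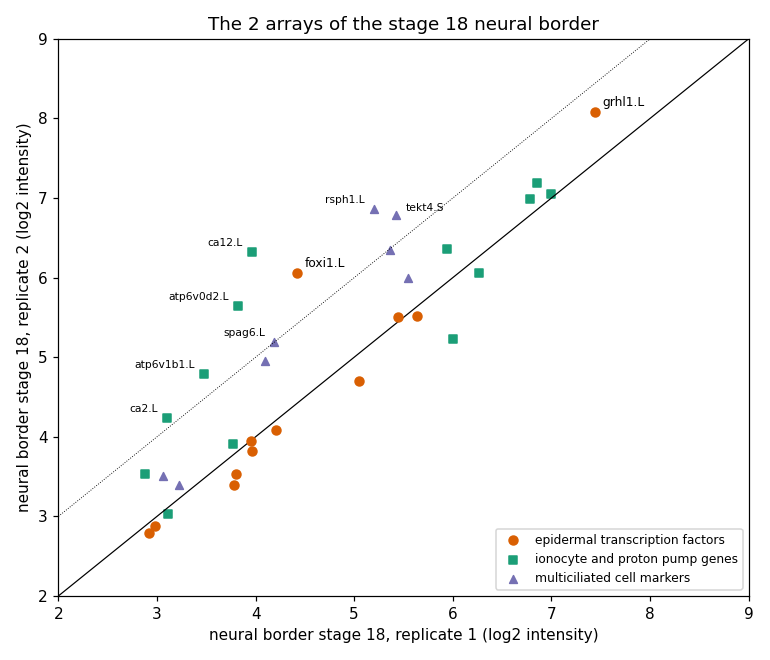
Log2 intensity on replicate 2 (vertical) against replicate 1 (horizontal) of the stage 18 neural border, for the 12 epidermal factor probe sets, 13 ionocyte and proton pump genes and 8 multiciliated cell markers. The solid line marks equal levels and the dotted line 1 log2 unit more on replicate 2; foxi1.L, at 4.42 and 6.06, lies above the dotted line with 4 ionocyte genes and 3 multiciliated markers.

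A gap of similar size lay between the plate arrays for foxi4.2.S, at 9.09 and 7.54, which 0.103% of probe sets reached in that group. On replicate 1 foxi4.2.L (7.16 against 6.47) and foxi1.L (5.36 against 4.52) were higher too, and the brighter gata2.L was lower (4.33 against 5.24). None of the 13 ionocyte genes differed by more than 1 unit between the plate arrays. Over all probe sets only 0.278% were that much higher on replicate 2 and 0.297% that much lower. The count is therefore not read as a result about these genes.

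Several products of differentiated epidermis, the kind of gene these factors act on, were lower in the stage 14 border than in the cap. Of the 18 epidermal keratins and secreted products, 6 of them at background in the cap, 9 were lower there, 0 higher and 9 not past the threshold. Their median log2 difference was -1.0, against -0.04 over all probe sets. Krt12.4.L read 12.50 in the cap and 9.68 in the stage 14 border (log2 difference -2.83, SE 0.32, adjusted p = 0.00016), and itln1.L 11.06 and 9.30 (log2 difference -1.75, SE 0.53, adjusted p = 0.0299). In the stage 18 border 6 were lower and 0 higher, and in the fold 7 lower and 2 higher. In these comparisons with the cap, and those of the lists that follow, 14.6% to 19.9% of all probe sets were lower and 15.1% to 18.7% higher. Some members lay above the cap on both stage 18 border arrays without passing the threshold, and are named after their values were seen. Itln1.L read 12.09 and 12.34 there against 11.06 in the cap, otogl2.L 9.79 and 10.16 against 8.87, and the keratin gene krt8.1.S 11.19 and 11.80 against 10.85. From plate to stage 14 border, 6 of the 18 rose and 2 fell, against 19.6% and 21.4% of all probe sets. Itln1.L rose by 5.22 (SE 0.42, adjusted p = 1e-05).

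Of 22 junction and surface genes, 11 were lower in the stage 14 border than in the cap and 1 higher, with a median of -0.74. The lower members included dsp.L, which encodes the desmosomal protein desmoplakin (6.31 against 8.86, log2 difference -2.55, SE 0.26, adjusted p = 7.58e-05), and ocln.S, the gene of the tight junction protein occludin (6.12 against 8.66, log2 difference -2.55, SE 0.17, adjusted p = 7.38e-06). The 1 higher member was dscc1.L, a DNA replication gene that entered the list through its spelling. In the plate 8 were lower and 4 higher, in the stage 18 border 9 and 1, and in the fold 10 and 3. Dscc1.L read 6.22 to 7.79 in these tissues as well, against 5.36 in the cap, and all counts and medians of the 22 include it. The adhesion gene epcam.L read 9.74 in the cap and 9.51 to 10.32 elsewhere.

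Of 13 ionocyte and proton pump genes, 4 were lower in the stage 14 border than in the cap and 0 higher (median -0.50). In the plate 2 were lower and 1 higher, where 14.6% and 16.7% of all probe sets were, so these counts are near the background. In the stage 18 border 3 were lower and 0 higher, against 16.9% and 16.3% of all, and in the fold 7 and 0, against 19.9% and 18.7%. Ca12.L was 4.31-fold below the cap in the stage 14 border (adjusted p = 0.0382) and at least 4.61-fold in the fold (adjusted p = 0.0116). Atp6v1b1.L was at least 2.47-fold below the cap in the plate (adjusted p = 0.00657), the stage 14 border (adjusted p = 0.00883) and the fold (adjusted p = 0.0056). Another pump subunit gene, atp6v0d1.L, named after its values were seen, read 5.99 to 6.30 in the fold against 5.74 in the cap.

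Among 21 genes of BMP signalling and its early ectodermal response, 12 were lower in the stage 14 border than in the cap and 2 higher (median -1.07). The plate had 15 lower and 2 higher, the stage 18 border 12 and 2, and the fold 13 and 2. Szl.L, which encodes the secreted BMP feedback regulator Sizzled, read 8.38 in the cap and 2.27 to 2.69, at background, on all other arrays, so each neural tissue was at least 25.2-fold lower. Bambi.L, the gene of a BMP pseudoreceptor, was 19.7-fold lower in the plate than in the cap (log2 difference -4.30, SE 0.25, adjusted p = 3.46e-06). Between plate and stage 14 border 8 of the 21 were higher and 6 lower, against 19.6% and 21.4% of all probe sets. Msx2.L, a border homeobox gene, rose by 3.05 (SE 0.19, adjusted p = 2.78e-06) in the same comparison in which bmp7.2.L fell by 5.25.

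Markers of other tissues that could be present were read beside these counts. Of 6 neural plate markers all 6 were higher in the stage 14 border than in the cap, and of 6 neural crest markers 5 were. Muscle and mesoderm markers (10 genes, 7 at background in the cap, myod1 and tbxt among them) had 0 called by limma in that comparison, with 1 of the 10 at an unadjusted p under 0.05. The 10 together read 7.42 in the cap against 6.66 to 7.55 elsewhere. Within that sum the muscle gene ckm.L read 5.94 in the cap, its highest level, and 3.51 to 5.18 elsewhere. The cap array lay above all others for 5 of the 10, against 21.4% of all probe sets. Of these, myod1.L, tbx6.L and mespa.S were at background in the cap. The gene tbxt.S read 6.30 and 5.56 in the plate and lay at background on every other array. Against the cap, the plate had 2 of the 10 higher and 1 lower, where 16.7% and 14.6% of all probe sets were. Endoderm markers (11 genes, 4 at background in the cap, sox17a among them) had 1 higher and 2 lower, and together read 7.61 in the cap, 7.45 to 8.15 in the plate and border groups and 9.16 to 9.64 in the fold. The fold's sum came mainly from 1 gene, a2m.S, at 8.78, 9.34 and 8.93, and no other member read above 5.18 there. Multiciliated markers (8 genes, 3 at background in the cap) had 0 higher and 1 lower in the stage 14 border than in the cap. In the plate and in the fold 4 of the 8 were lower and 0 higher, where 14.6% and 19.9% of all probe sets were lower. In the stage 18 border 2 were lower and 1 higher, against 16.9% and 16.3% of all. The 3 cement gland markers were all higher in the fold than in the cap, and together read 11.9 to 12.3 in the fold, 10.5 in the cap and 7.28 to 10.5 on the remaining arrays. Tp63.L had its highest mean in the same group, and the part of cement gland tissue in that level was not tested.

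Genes with the most similar profiles were sought for 4 members. For each, the 5 group means were centred on their own mean and compared by root mean square difference (in log2 units) with 4235 probe sets whose group means spanned at least 1 unit. Closest to gata2.L was szl.S, the second Sizzled homeolog, at 0.36, followed by tbc1d24.2.L at 0.40 and the amino acid transporter gene slc38a2.L at 0.43. Szl.S read 7.28 in the cap and lay at background in all 4 neural tissues. Closest to foxi4.2.S were gs17.L at 0.46, the BMP-responsive homeobox gene ventx2.1.S at 0.47 and an unnamed gene, LOC100036828, at 0.47. Ventx2.1.S read 9.47 in the cap and 8.40 in the plate, then 5.65 in the stage 14 border, 4.64 in the stage 18 border and 4.95 in the fold. Closest to grhl3.L were dvl3.L, a gene of the Wnt signal transducer Dishevelled, at 0.15, the POU factor gene pou2f3.L at 0.18 and bambi.S at 0.20. Grhl3.L, pou2f3.L and bambi.S all lay at background in the 4 neural tissues, so 4 of the 5 points compared between them are background values. Closest to klf5.S were canx.S, which encodes the chaperone calnexin, at 0.10, and clcn3.S and rrbp1.S, both at 0.12, the last at background in the 4 neural tissues. Each profile has only 5 points, 1 of them a single array, and is a description only.

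**Figure D4:**
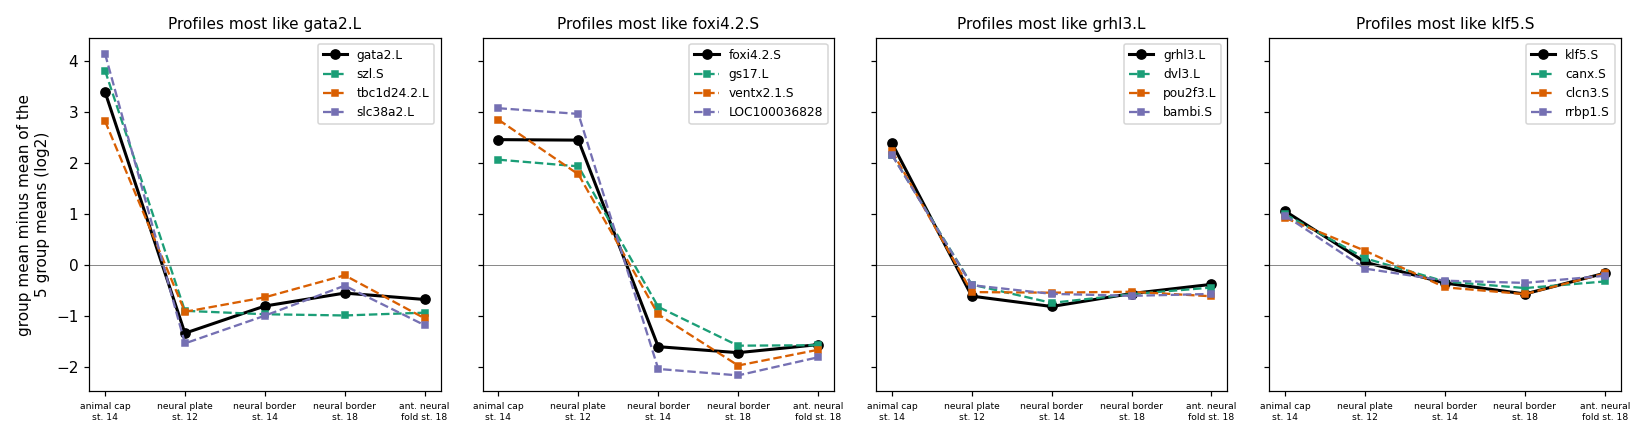
Group means minus the mean of the 5 group means (log2, vertical axis) for gata2.L, foxi4.2.S, grhl3.L and klf5.S (black) and the 3 genes with the most similar profile to each (dashed). Tissues are on the horizontal axis; the foxi4.2.S panel keeps the cap and plate level (8.33 and 8.32), while the other panels drop after the cap.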

How the data were processed

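RNA from 11 microdissected tissue samples was hybridised to Affymetrix Xenopus laevis arrays. The deposited values are taken as log2 intensities from their range; the submitters' processing notes name R 2.14.2, and the background correction, summary and normalization are not given in the sources used here. Probe sets were named from the platform annotation, with symbols updated through the RefSeq gene table (assembly Xenopus_laevis_v10.1): 9304 of 15491 non-control probe sets had 1 symbol, 195 several and 5992 none, and 9227 matched the table. No update changed a member.

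Tests used limma 3.58.1 (R 4.3.3; lmFit, then eBayes with default settings) in 1 model of all 11 arrays with a mean per group and no block. Residual degrees of freedom were 6, with 3.75 more from the prior, whose SD was 0.16. P-values are two-sided and adjusted by Benjamini-Hochberg over 15491 probe sets in each comparison, with a threshold of 0.05. SEs and intervals come from this model. Where all arrays of a group were below 3.72, that floor replaced them and the fold is "at least". The method was tested on simulated data. The number of arrays limits the precision.

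The members, the 11 gene lists and the tests were chosen with earlier results of these data known, so nothing here is independent support for them. All members are reported. For each list and comparison, up to 2 called genes with the largest difference were eligible to be named (the brightest probe set per symbol), and other list genes, named for their levels, were chosen after their values were seen. Alternatives were quantile normalization, median centring, dim probe sets left out, only the arrays compared, a replicate block, eBayes with trend and robust settings, and leaving out each of 10 arrays.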

Additional observations from a re-analysis of the deposited data

How the results depend on the processing

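Each comparison was repeated under 16 alternatives. With dim probe sets left out, 2 whose mean over all arrays was below background (grhl3.L and the dimmer foxi4.2.L) have no value. The directions of the calls against the cap held throughout, but not every call did. In each comparison with the cap, some alternatives called fewer of the 12 members than the 11 of the main model. The dimmer klf5.S probe set kept its call in 15 of 16 alternatives for the plate and for the stage 18 border. The sign of 2 differences that missed the threshold turned: foxi4.2.S between plate and cap (main value -0.01) was 0.21 with the replicate block and -0.78 to 0.76 when single arrays were left out, and tp63.L between stage 18 border and cap (0.11) was -0.065 to 0.28 when single arrays were left out. With only the arrays compared, 1974 probe sets were called between stage 18 border and cap (main 5148) and 233 between the border at stages 18 and 14 (main 1016), where fewer arrays estimate the spread. With the replicate block the latter count was 620. Leaving out single arrays gave 458 to 859 calls there with 0 to 1 of the 12 members called (main 0), 543 to 1058 between stage 18 border and fold (main 925) with 0 to 1 members (main 0), and 1402 to 2516 between fold and stage 14 border (main 2285) with 1 to 2 members (main 2). Between fold and plate it gave 3 to 6 members (main 5). With dim probe sets left out, 1 member was called between stage 18 border and fold (foxi1.L, adjusted p = 0.0419) and 1 between fold and stage 14 border. In the latter, grhl3.L, called in the main model, had no value. Where no value shows why, the cause was not tested.

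Replicate numbers gave no clear pairing of the arrays: over 13 pairs of same-numbered arrays, deviations from the group means correlated at -0.10 to 0.26, and 2 exceeded 0.1. In a group of 2 arrays the deviations mirror each other, so these values are not independent and cannot exclude a pairing. Median centring moved the share of calls that were higher at stage 18 than at stage 14 in the border from 57.6% to 46.6%, and it shifted the median of all probe sets to -0.13 against the cap for the stage 18 border and the fold. The single cap array, unknown normalization and homeolog cross-hybridisation limit all values.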
